A study of Rattus norvegicus with 6 samples.

Results

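Ion channels that answer heat, irritants, pressure, extracellular ATP, acid and membrane voltage were followed in injured rat sciatic nerve. The 40 genes were taken by symbol alone from the 29884 genes of the count table, and they comprise the TRPA, TRPV, TRPM and TRPC channels, Piezo1 and Piezo2, the P2X receptors, the acid-sensing ASIC channels and the HCN pacemaker channels. Messenger RNA was sequenced in 3 libraries of wild type rat sciatic nerve with chronic constriction injury (CCI, ligatures that keep the nerve compressed) treated with PLLA-PCL-RVC. The same was done in 3 libraries of CCI nerve without that treatment. The series describes the treatment as a piezoelectric nerve conduit, where RVC stands for ropivacaine, a local anaesthetic. All 6 libraries, conduit and untreated alike, carry the injury, and no uninjured nerve, no conduit without the drug and no drug without the conduit was analysed here. The labels used here give neither the time after injury nor the age of the rats nor whether each library is a separate animal, and p-values therefore speak of the spread among these 6 libraries, part of which may be technical. The batch numbers in the labels never span both groups, so batch and treatment cannot be told apart.

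These proteins open a pore for cations. TRP channels respond to temperature, plant irritants, lipids or the state of the cell's stores, Piezo channels open when the membrane is stretched, P2X receptors open on binding ATP released from damaged or active cells, ASICs open on extracellular protons, and HCN channels carry the depolarizing current that sets repetitive firing. They are best known from the cell bodies and endings of sensory neurons, but Schwann cells, macrophages, endothelium and fibroblasts of a nerve trunk carry several of them. In bulk nerve, fewer cells of a type and less RNA per cell cannot be told apart.

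Total counts ran from 38401951 to 42225086 per library. Values below are CPM, counts scaled to a common library total after TMM (trimmed mean of M-values) correction, given for replicates 1, 2 and 3 of a group in that order. Log2 fold changes are conduit minus untreated with a standard error (SE), and adjusted p-values are Benjamini-Hochberg values over all 15464 genes tested with the quasi-likelihood F test of edgeR, where a gene under 0.05 was called. Scaling matters in this series because the TMM factors were 0.853 to 0.905 in conduit libraries and 1.12 to 1.18 in untreated libraries. With library totals alone the median log2 fold change of all genes moves by -0.39, and 25.9% of calls over all genes are higher in place of 47.8%. Schwann cell genes, which mark the labelled tissue, were detected in all libraries and 8 of 8 were higher in conduit nerves, with summed levels of 157131 to 204775 CPM in conduit libraries and 10689 to 26057 CPM in untreated libraries. Summed macrophage markers were 183 to 425 CPM in conduit libraries and 1547 to 2222 CPM in untreated libraries, with 10 of 10 lower. Summed perineurial markers were 2053 to 2498 CPM in conduit libraries and 350 to 553 CPM in untreated libraries. Of these, 5 of 5 tested were higher and Lypd2 was at 0 counts throughout. For comparison, 24.0% of all tested genes were called higher and 26.2% lower. Untreated replicate 1 held 9933 CPM of skeletal muscle markers, led by Acta1 and Ckm, against 3.39 to 8.04 CPM in conduit libraries and 8.56 to 72.4 CPM in the other untreated libraries. Conduit replicate 3 held 1704 CPM of adipocyte markers, led by Fabp4 and Adipoq, where conduit replicates 1 and 2 had 311 and 392 CPM and the untreated libraries 335 to 776 CPM. Abundant markers of the remaining lists were Pmp22 (Schwann cell), Mrc1 and Cd163 (macrophage), Cd8a and Cd3g (T and NK cell), Cma1 and Cpa3 (mast cell), Pecam1 and Vwf (endothelium), Acta2 and Myh11 (mural), Dcn and Lum (fibroblast), Itgb4 and Slc2a1 (perineurium), Uchl1 and Prph (sensory neuron), Pmel and Dct (melanocyte) and Mki67 and Top2a (proliferation).

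**Figure D1:**
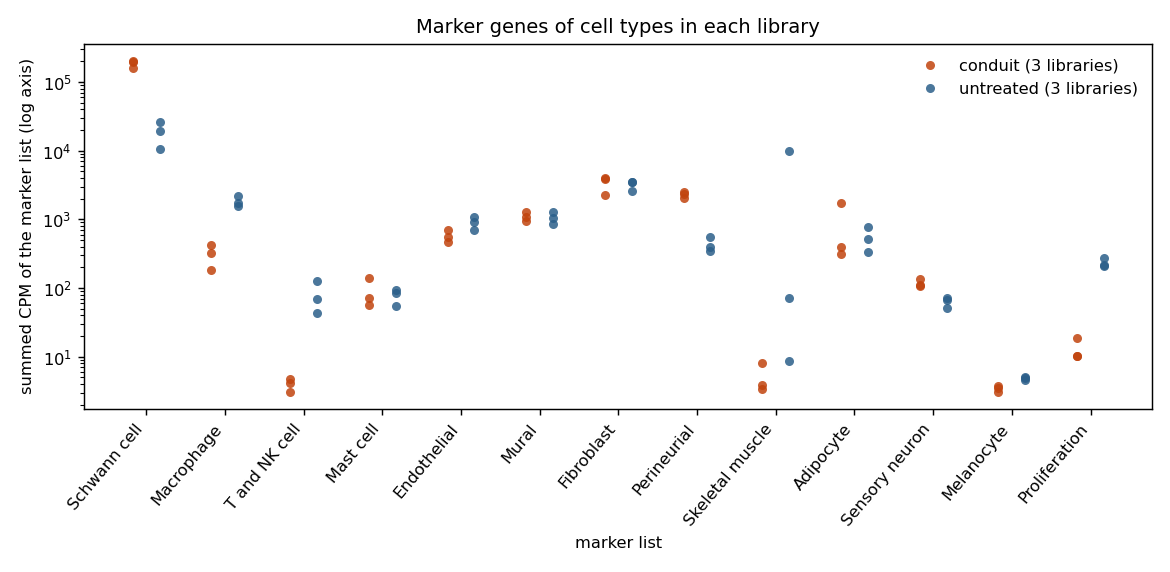
Summed CPM (log axis) of marker genes of cell types and of proliferation genes in each library, conduit left of untreated, 1 point per library. Schwann cell and perineurial markers are higher in all 3 conduit libraries, macrophage, T and NK cell and proliferation markers are lower, and untreated replicate 1 stands apart for skeletal muscle at 9933 CPM.

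Of the 40 channel genes, 29 had enough counts to be tested, and 22 of these were called, of which 13 rose and 9 fell in conduit nerves. Over all tested genes 50.2% were called, 24.0% higher and 26.2% lower. Conduit and untreated libraries were fully separated in 23 of the 29 genes, against 61.7% of all tested genes, and 20 were called with a change of at least 2-fold, against 29.8%. The median log2 fold change was 1.13 over the tested channel genes and -0.04 over all tested genes, and the median size of the change without its sign was 1.40 and 0.64. The filter favours genes that are high in at least 1 group, and Trpa1 and Asic4 passed it through 1 group only. Asic1, Hcn3 and Trpm1 reached its cutoff in all 3 libraries of their higher group but in fewer of the other. These shares therefore describe the genes tested and not all 40. The TRPA and TRPV, TRPM, Piezo, P2X and ASIC genes each included called genes of both directions, while the called TRPC and HCN genes were all higher.

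**Figure D2:**
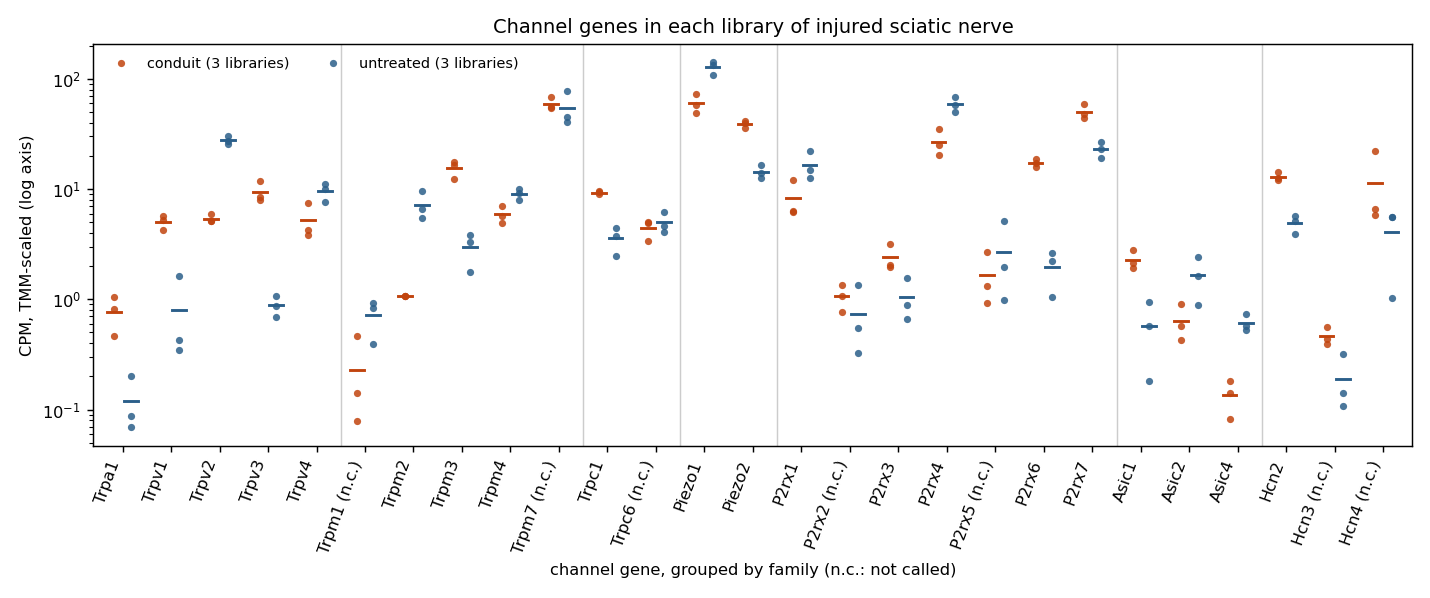
CPM (log axis) of 27 of the 29 tested channel genes in each library, conduit left of untreated, with bars at the group means and families separated by vertical lines. Trpv3, P2rx6 and Trpm2 lie far apart between groups, while Trpm1, Trpm7, Trpc6, P2rx2, P2rx5 and Asic2 overlap.

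Among the heat and irritant receptors, Trpv1, Trpv3 and Trpa1 were higher and Trpv2 and Trpv4 lower in conduit nerves. Trpv1, the receptor for capsaicin, noxious heat and protons, was at 5.71, 5.23 and 4.27 CPM in conduit libraries, against 0.346, 0.424 and 1.63 CPM in untreated libraries. All conduit libraries lay above all untreated libraries, and untreated replicate 3 was the highest of its group (log2 fold change 2.66 ± 0.60 SE, adjusted p = 0.00857, or 3.71 without untreated replicate 3). Trpv3, a warmth-sensitive channel best known from keratinocytes, had 11.9, 8.53 and 7.98 CPM in conduit libraries, against 1.08, 0.868 and 0.690 CPM in untreated libraries. The groups were far apart, and Trpv3 showed the highest fold change of the 29 tested channel genes (3.42 ± 0.29, adjusted p = 0.000146, a fitted fold of 10.7). Trpa1, the receptor for mustard oil and other reactive irritants, was scarce, at 0.467, 1.05 and 0.811 CPM in conduit libraries and 0.0865, 0.202 and 0.0690 CPM in untreated libraries. Its groups did not overlap (2.65 ± 0.58, adjusted p = 0.00735, and 3.26 without untreated replicate 2), but the values rest on few counts. Trpa1 passed the filter through the conduit group only, so it had to differ to be tested.

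Trpv2, a channel found in macrophages as well as in large sensory neurons, went the other way. It was at 5.16, 5.14 and 5.92 CPM in conduit libraries, against 30.6, 25.9 and 27.2 CPM in untreated libraries, with little spread within either group (-2.37 ± 0.15, adjusted p = 7.82e-05). The macrophage markers Cd68 (9.27 ± 3.88 CPM in conduit and 113 ± 9.17 CPM in untreated nerves, mean ± SD of 3 libraries each) and Cd163 (30.0 ± 15.7 CPM in conduit and 365 ± 98.3 CPM in untreated nerves) were lower as well, and their part in the result was not tested. Trpv4, which opens on cell swelling and warmth, was at 4.23, 7.49 and 3.85 CPM in conduit libraries and at 7.68, 10.1 and 11.02 CPM in untreated libraries. Conduit replicate 2 nearly reached untreated replicate 1 (-0.89 ± 0.30, adjusted p = 0.0422), and leaving out conduit replicate 1 or 3 or untreated replicate 2 or 3 ended the call (adjusted p = 0.145, 0.134, 0.0853 and 0.114). Trpv5 had no count in any library and Trpv6 had 1 count in all.

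The ratio of 2 genes in the same library does not depend on how libraries are scaled. Trpv1 stood at 1.14, 1.05 and 0.744 times the FPKM of Trpv2 in conduit libraries, against 0.0117, 0.0169 and 0.0618 times in untreated libraries, FPKM being the deposited level per kilobase of gene. Every conduit library was above every untreated library. That follows from Trpv1 being higher and Trpv2 lower without overlap, and the ratios were chosen after their values were seen. The exact permutation test therefore adds nothing to these calls (two-sided, p = 0.1, the smallest that 3 against 3 libraries allow, and 0.1 after adjustment over the 6 ratios computed). In untreated nerve Trpv2 made up most of the TRPA and TRPV transcripts per length, while in conduit nerve Trpv1 and Trpv2 were at similar levels, 1.55 ± 0.193 and 1.61 ± 0.182 FPKM (SD of 3 libraries).

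Sensory neuron markers went several ways beside the rise of Trpv1 and Trpa1. Of 12 markers 9 were tested, of which Scn9a, Calca, Uchl1 and Snap25 rose and Pou4f1 fell, a share near the 50.2% called over all tested genes. Avil, Prph and Isl1 were among those not called (log2 fold changes 0.06, 0.47 and -0.42). The neuropeptide gene Calca was at 0.497 to 0.797 CPM in conduit and 0.0460 to 0.182 CPM in untreated libraries (2.61 ± 0.60, adjusted p = 0.00898), a level and a change close to those of Trpa1. The sodium channel gene Scn9a was at 1.62 to 6.02 CPM in conduit and 0.897 to 1.82 CPM in untreated libraries (a fitted fold of 2.84, adjusted p = 0.0427), with overlapping groups. Pou4f1, a transcription factor of sensory neurons, was at 0 to 0.0785 CPM in conduit and 0.562 to 1.96 CPM in untreated libraries (-5.04 ± 0.87, adjusted p = 0.00262). Calca had 29, 20 and 19 counts in conduit and 3, 9 and 2 in untreated libraries, and Pou4f1 had 1, 0 and 3 against 26, 97 and 58. Calca thus passed the filter through the conduit group only and Pou4f1 through the untreated group only. Their calls rest on genes that had to differ to be tested. Scn10a, the sodium channel of nociceptors, was at 0 to 0.0262 CPM in conduit and 0 to 0.115 CPM in untreated libraries, and the neuropeptide gene Tac1 at 0 to 0.0785 CPM in conduit and 0 to 0.0216 CPM in untreated libraries, both too low to be tested. The summed level of the list was 106 to 135 CPM in conduit libraries and 51.8 to 72.1 CPM in untreated libraries, and Uchl1 alone gave 89.2 to 116 CPM of it in conduit and 40.5 to 55.6 CPM in untreated libraries. The part of these transcripts in the Trpv1 and Trpa1 results was not tested.

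In the RefSeq gene order of the GRCr8 assembly, Trpv1 and Trpv3 are next to each other on chromosome 10, on the same strand, with no protein-coding gene between them. P2rx4 and P2rx7 are likewise neighbours on chromosome 12. The first pair rose together and the second, described below, moved apart. The 250 bases before the annotated start of Trpv1 and Trpv3 are shown because the genes are adjacent and share a direction. The motifs searched on both strands were the AP-1 site TGANTCA, the SOX core ACAAAG, the PU.1 core GAGGAA, the GC box GGGCGG and the EGR site GCGTGGGCG, and capitals mark a match. AP-1 is the site of Jun and Fos factors, SOX factors include Sox10 of Schwann cells, and PU.1 is a factor of myeloid cells.
Trpv1, chr10:58349686-58349935, plus strand, GRCr8: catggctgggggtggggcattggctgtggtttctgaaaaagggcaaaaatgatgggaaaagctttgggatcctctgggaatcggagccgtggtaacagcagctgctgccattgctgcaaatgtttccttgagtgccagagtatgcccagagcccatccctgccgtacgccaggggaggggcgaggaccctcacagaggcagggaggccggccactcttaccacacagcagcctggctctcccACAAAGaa
Trpv3, chr10:58381804-58382053, plus strand, GRCr8: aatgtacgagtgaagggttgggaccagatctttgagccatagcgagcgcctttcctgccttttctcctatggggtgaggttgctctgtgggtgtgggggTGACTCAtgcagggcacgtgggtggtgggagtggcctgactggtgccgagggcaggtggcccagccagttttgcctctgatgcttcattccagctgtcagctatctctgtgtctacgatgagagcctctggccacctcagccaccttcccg
The Trpv1 window held 1 SOX core, 8 to 3 bases before the start, and the Trpv3 window held 1 AP-1 site, 151 to 145 bases before the start. Over 33469 RefSeq promoter windows of the same length, 16.3% held the SOX core and 6.34% the AP-1 site, so matches of this kind are common and are given as letters in the window, not as binding. GC content was 58.4% before Trpv1 and 58.8% before Trpv3, against a median of 51.2% over all windows, and they held 6 and 7 CpG dinucleotides, against a median of 5.

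TRPM channels split as well. Trpm3, a heat-activated channel that also opens on the neurosteroid pregnenolone sulfate, was at 12.3, 17.5 and 16.7 CPM in conduit libraries, against 1.77, 3.79 and 3.31 CPM in untreated libraries. Each conduit library exceeded every untreated library by a wide margin (2.38 ± 0.31, adjusted p = 0.000825). Trpm2, a channel of myeloid cells gated by ADP-ribose and oxidative stress, was at 1.07 CPM in each of the 3 conduit libraries, against 9.54, 6.56 and 5.50 CPM in untreated libraries. It was lower throughout (-2.74 ± 0.29, adjusted p = 0.000327). Trpm4, a sodium-conducting channel opened by intracellular calcium, was at 4.95, 5.73 and 7.09 CPM in conduit and 7.94, 9.28 and 9.94 CPM in untreated libraries. The groups came close (-0.61 ± 0.21, adjusted p = 0.0423). The Trpm4 call ended when conduit replicate 1 or 2 (adjusted p = 0.146 and 0.134) or untreated replicate 2 or 3 (0.0751 and 0.117) was left out. It also ended without the low-count filter (0.0654).

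Trpm7, a magnesium-permeable channel fused to a kinase, was the most abundant TRP gene in conduit nerve. It had 55.4, 54.7 and 67.9 CPM in conduit libraries and 40.7, 77.7 and 44.9 CPM in untreated libraries. The groups overlapped and the gene did not pass (0.12 ± 0.25, adjusted p = 0.709, and -0.27 with library totals), although without untreated replicate 2, the highest library, it was called at 0.47 (adjusted p = 0.0323). Trpm1, known from retinal bipolar cells and melanocytes, was at 0.467, 0.141 and 0.0785 CPM in conduit libraries and 0.930, 0.827 and 0.391 CPM in untreated libraries, with conduit replicate 1 inside the untreated range. It did not pass (-1.64 ± 0.70, adjusted p = 0.0865) but was called with library totals (-2.03, adjusted p = 0.0387), the replicate block (0.0412) or without conduit replicate 1 (-2.66, adjusted p = 0.0256). Summed melanocyte markers beside it were 3.08 to 3.70 CPM in conduit and 4.56 to 5.06 CPM in untreated libraries. Of the 2 tested, Pmel rose (2.75 to 3.31 CPM in conduit and 1.49 to 1.98 CPM in untreated libraries, 0.84 ± 0.27, adjusted p = 0.0353) and Dct fell (0.330 to 0.628 CPM in conduit and 3.03 to 3.48 CPM in untreated libraries), while Tyr was at 0 throughout and Mlana at 1 count in all. Their part in the Trpm1 values was not tested. Trpm8, the cold and menthol receptor, had counts in all libraries at 0.0824 to 0.226 CPM in conduit and 0.0433 to 0.460 CPM in untreated nerve, too few to be tested, as were Trpm5 and Trpm6.

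Of the TRPC channels, which open downstream of phospholipase C, Trpc1 rose. It was at 9.56, 9.35 and 9.005 CPM in conduit libraries and 2.49, 4.46 and 3.75 CPM in untreated libraries. The conduit libraries were nearly alike and all above the untreated ones (1.38 ± 0.25, adjusted p = 0.00337). Trpc6, which diacylglycerol opens directly, was at 3.38 to 5.08 CPM in conduit and 4.11 to 6.24 CPM in untreated libraries, with overlapping groups (-0.16 ± 0.27, adjusted p = 0.65). Trpc4 was detected in 5 of the 6 libraries, at 0.192, 0.395 and 0.419 CPM in conduit and 0.0865, 0.182 and 0 CPM in untreated libraries, and like Trpc2 and Trpc5 had too few counts to be tested. Trpc7 had none. A count of 0 in a library allows up to 3 counts. On the scale used here that is 0.0785 to 0.0847 CPM in conduit and 0.0605 to 0.0690 CPM in untreated libraries, a limit that covers counting error only.

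**Figure D3:**
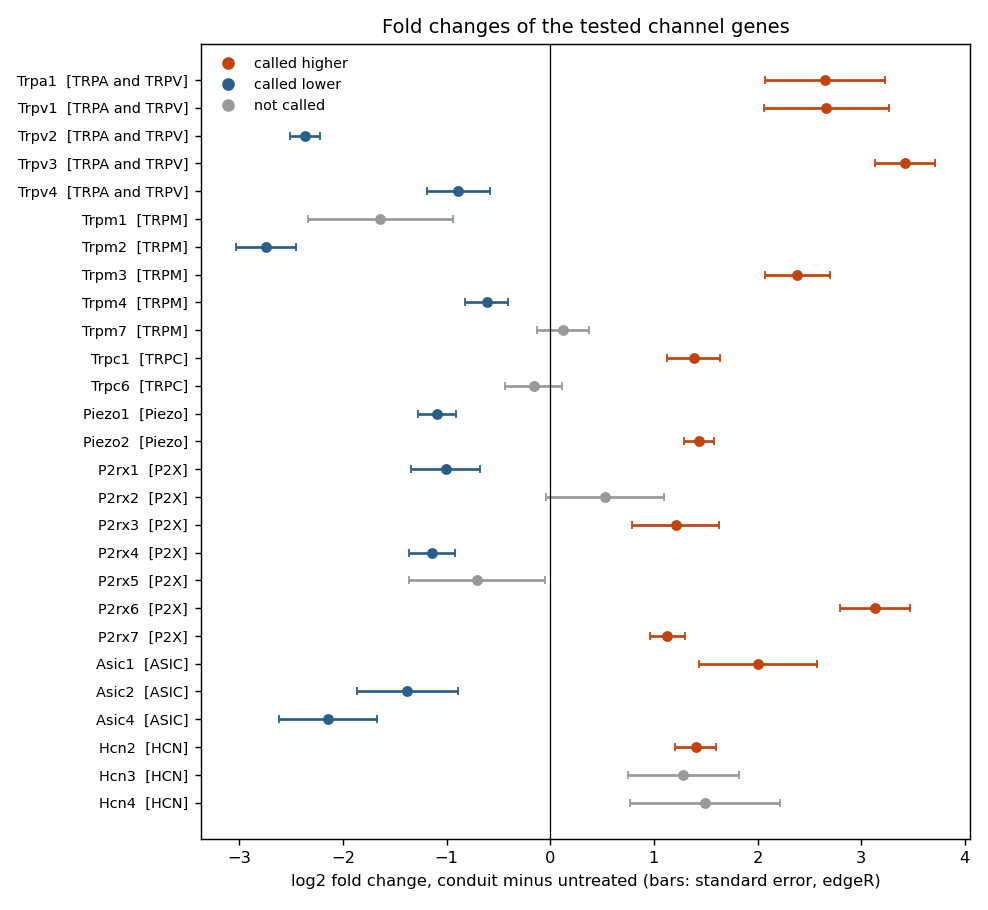
Log2 fold change, conduit minus untreated, with its standard error for 27 of the 29 tested channel genes, ordered by family. Points right of 0 are higher in conduit nerve. They run from Trpv3 at 3.42 to Trpm2 at -2.74.

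The Piezo channels moved apart. Piezo2, the channel of touch and of proprioceptive endings, was at 39.9, 41.0 and 35.7 CPM in conduit libraries, against 13.9, 16.7 and 12.5 CPM in untreated libraries. The spread within each group was small beside the gap between them (1.43 ± 0.15, adjusted p = 0.000284). Piezo1, known from endothelium, red cells and macrophages, was at 49.0, 57.5 and 73.0 CPM in conduit libraries and 109, 142 and 133 CPM in untreated libraries. It was lower in each conduit library (-1.09 ± 0.18, adjusted p = 0.00231). The ratio of Piezo2 to Piezo1 FPKM was 0.806, 0.707 and 0.484 in conduit libraries, against 0.127, 0.117 and 0.0933 in untreated libraries, without overlap (exact permutation test, p = 0.1, the smallest possible). That separation follows from Piezo2 being higher and Piezo1 lower without overlap, so the test adds nothing to these calls. Piezo1 was the more abundant Piezo per length in all 6 libraries. Of 6 endothelial markers Pecam1 (133 ± 34.5 CPM in conduit and 254 ± 40.4 CPM in untreated nerves, SD of 3 libraries) and Tie1 fell with Piezo1. Cdh5, Kdr, Emcn and Vwf were not called. Of the macrophage markers 10 of 10 were lower, where 26.2% of all tested genes were called lower. The part of either list in the Piezo1 values was not tested.

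P2X receptors were the most abundant of the families per length. P2rx4, the receptor known for its rise in spinal microglia after nerve injury in rodents and present in macrophages, was at 25.1, 35.2 and 20.2 CPM in conduit libraries, against 69.0, 49.9 and 58.4 CPM in untreated libraries. No conduit library reached an untreated one (-1.14 ± 0.22, adjusted p = 0.00485). P2rx7, which needs high ATP and is linked to interleukin-1 release, was at 59.2, 47.6 and 44.4 CPM in conduit libraries, against 23.2, 19.3 and 26.6 CPM in untreated libraries. It was higher in each conduit library (1.13 ± 0.17, adjusted p = 0.0015). In the same libraries Schwann cell and perineurial markers were higher and macrophage markers lower, and their part in the P2rx7 values was not tested. The ratio of P2rx7 to P2rx4 FPKM was 1.22, 0.700 and 1.14 in conduit libraries, against 0.174, 0.200 and 0.236 in untreated libraries (exact permutation test, p = 0.1, the smallest possible). Here too the separation follows from P2rx7 being higher and P2rx4 lower without overlap, so the test adds nothing to these calls.

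P2rx6, a subunit that forms few working channels without partners, changed most within the family. It had 15.8, 18.7 and 17.1 CPM in conduit libraries, against 2.21, 1.05 and 2.62 CPM in untreated libraries, far from any overlap (3.13 ± 0.34, adjusted p = 0.000358, a fitted fold of 8.78). P2rx3, the ATP receptor of nociceptors, was low, at 1.98, 3.19 and 2.04 CPM in conduit libraries and 0.887, 0.666 and 1.56 CPM in untreated libraries. Its groups did not overlap (1.21 ± 0.42, adjusted p = 0.0453), but the call was lost with library totals (0.83, adjusted p = 0.119). P2rx3 also lost it with the replicate number as a block (0.073), without the low-count filter (0.0586) and by limma on unfiltered FPKM (0.113). The same happened when any library but untreated replicate 3 was left out (0.0603 to 0.149). P2rx1, of smooth muscle and blood cells, was at 6.24, 12.2 and 6.33 CPM in conduit libraries and 15.0, 12.6 and 22.2 CPM in untreated libraries. Conduit replicate 2 and untreated replicate 2 were nearly level (-1.01 ± 0.33, adjusted p = 0.037), and the call was lost with the replicate block (0.0596) or without conduit replicate 1 or 3 or untreated replicate 1 or 3 (0.125, 0.119, 0.0542 and 0.118).

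P2rx2 (0.52 ± 0.57, adjusted p = 0.473) and P2rx5 (-0.70 ± 0.66, adjusted p = 0.403) did not pass. P2rx5, which skeletal muscle also expresses, was highest at 5.13 CPM in untreated replicate 1, the library with the most muscle transcripts. It stood at 0.989 and 1.98 CPM in the other untreated libraries and 0.934, 1.33 and 2.70 CPM in conduit libraries. Without untreated replicate 1 its log2 fold change was 0.16, and without conduit replicate 3 it was -1.20. The part of muscle in the P2rx5 values was not tested. The windows before the starts of P2rx4 and P2rx7 are shown because these neighbours, on the same strand, moved in opposite directions, with capitals for the motifs given above.
P2rx4, chr12:39523090-39523339, minus strand, GRCr8: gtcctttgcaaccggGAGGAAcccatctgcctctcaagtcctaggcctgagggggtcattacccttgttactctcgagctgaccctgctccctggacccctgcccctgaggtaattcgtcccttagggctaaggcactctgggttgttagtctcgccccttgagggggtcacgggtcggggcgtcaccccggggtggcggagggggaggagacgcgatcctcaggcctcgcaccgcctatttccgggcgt
P2rx7, chr12:39594923-39595172, minus strand, GRCr8: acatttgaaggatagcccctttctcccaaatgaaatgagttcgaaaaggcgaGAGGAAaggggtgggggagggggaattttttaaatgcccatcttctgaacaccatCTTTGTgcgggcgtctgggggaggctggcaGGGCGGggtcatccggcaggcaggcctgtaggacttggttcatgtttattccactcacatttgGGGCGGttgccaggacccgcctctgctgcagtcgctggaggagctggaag
Both held the PU.1 core, present in 23.3% of all windows, at 235 to 230 bases before the P2rx4 start and 198 to 193 before the P2rx7 start. The P2rx7 window also held the SOX core, read on the opposite strand as CTTTGT, and 2 GC boxes, a motif present in 30.5% of windows. The P2rx4 window was richer in GC, at 64.0% with 15 CpG dinucleotides, against 56.0% and 9 for P2rx7. Neither window held the AP-1 or EGR site.

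Acid-sensing channels were the scarcest family. Asic1, the main proton-gated subunit of central neurons, was at 1.92, 2.82 and 2.12 CPM in conduit libraries, against 0.952, 0.182 and 0.575 CPM in untreated libraries. It rose without overlap (2.01 ± 0.57, adjusted p = 0.0216), with calls lost without conduit replicate 2 (adjusted p = 0.0659) or untreated replicate 3 (0.0557) and a value of 2.60 without untreated replicate 1. Only 2 untreated libraries reached the filter cutoff for Asic1, against 3 conduit libraries. Asic2, which tunes other subunits, was at 0.907, 0.424 and 0.576 CPM in conduit libraries and 1.62, 2.44 and 0.897 CPM in untreated libraries. Conduit replicate 1 overlapped untreated replicate 3, and the call (-1.38 ± 0.49, adjusted p = 0.0499) was lost with RLE scaling (0.0536) and with the replicate block (0.085). Asic2 also lost it without the low-count filter (0.0668), by limma on unfiltered FPKM (0.0566) and without any library except untreated replicate 3 (0.0543 to 0.163). Asic4, a subunit with no known proton-gated current of its own, was at 0.0824, 0.141 and 0.183 CPM in conduit libraries and 0.735, 0.525 and 0.575 CPM in untreated libraries (-2.14 ± 0.47, adjusted p = 0.0077). Asic4 passed the filter through the untreated group only, so its call rests on a gene that had to differ to be tested. Asic3, the acid sensor of sensory neurons, had counts in all libraries but at most 0.0690 CPM in any, and Asic5 had 1 count in all, so neither was tested.

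Among the pacemaker channels Hcn2 rose. Hcn2, which responds strongly to cyclic AMP and is tied to inflammatory and neuropathic pain in mouse, was at 12.1, 14.2 and 12.6 CPM in conduit libraries and 5.69, 3.90 and 5.11 CPM in untreated libraries (1.40 ± 0.20, adjusted p = 0.00114). Every conduit library was above every untreated one. Hcn3, a scarcer subunit, was at 0.440, 0.565 and 0.393 CPM in conduit libraries and 0.108, 0.141 and 0.322 CPM in untreated libraries. Its groups were separate, yet it did not pass (1.28 ± 0.54, adjusted p = 0.0817), except without untreated replicate 3 (1.87, adjusted p = 0.034). Hcn4, the channel of the cardiac pacemaker, was at 6.59, 5.82 and 21.9 CPM in conduit libraries and 1.04, 5.55 and 5.63 CPM in untreated libraries. Conduit replicate 3, the library with the most adipocyte markers, held the highest value and untreated replicate 1, the library with the most muscle markers, the lowest. The part of fat or muscle in the Hcn4 values was not tested. Hcn4 did not pass (1.49 ± 0.73, adjusted p = 0.125, or 0.0364 by DESeq2), stood at 0.64 without conduit replicate 3, and at 0.18 without both of those libraries, a setting chosen after seeing the data.

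Compared per length, the order of the channels differed between the groups. In conduit nerve Trpm7 (7.16 ± 1.12 FPKM), P2rx4 (6.87 ± 1.77) and P2rx7 (6.70 ± 0.967) led, and these 3 did not differ beyond their spread. Piezo1 (4.98 ± 1.15) and P2rx6 (4.85 ± 0.385), likewise level with each other, followed by their means. Piezo1, at most 6.26 FPKM, reached into the ranges of P2rx4 (lowest 5.38) and P2rx7 (lowest 6.11). In untreated nerve P2rx4 led at 19.8 ± 2.65 FPKM, followed by Piezo1 (13.9 ± 2.21), Trpv2 (10.8 ± 0.658), Trpm7 (8.63 ± 3.50) and P2rx1 (7.14 ± 2.07), with Trpv2 and Trpm7 and then Trpm7 and P2rx1 within their spread. Piezo1, at least 11.5 FPKM, also overlapped Trpv2 (highest 11.6) and Trpm7 (highest 12.6). P2rx4 alone gave 11.7% of all channel FPKM in conduit nerve and 23.7% in untreated nerve. Summed over the 40 genes, deposited FPKM were 58.8 ± 4.22 in conduit nerve and 83.6 ± 3.39 in untreated nerve. Divided by the TMM factors, the sums were 67.2 ± 4.51 in conduit and 73.1 ± 2.09 in untreated nerve, so most of that gap depends on the scaling. On the scaled values, HCN transcripts summed to 9.28 ± 2.26 in conduit and 2.93 ± 0.675 in untreated nerve, and TRPA and TRPV transcripts to 6.70 ± 0.674 in conduit and 12.9 ± 0.583 in untreated nerve (SD of 3 libraries each).

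**Figure D4:**
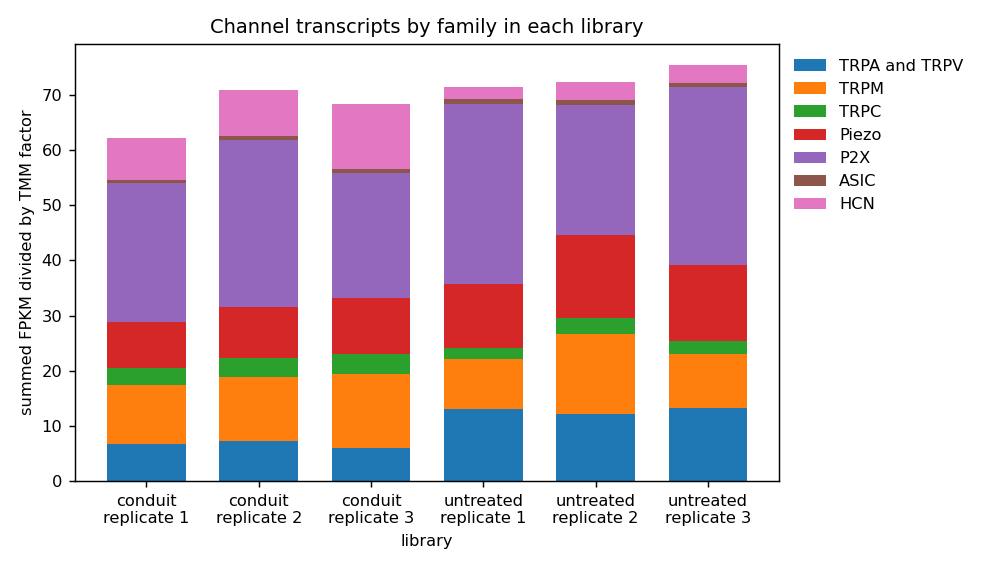
Deposited FPKM summed by channel family and divided by the TMM factor of the library, stacked for each of the 6 libraries, conduit on the left. The stacks have similar heights, 62.2 to 71.0 in conduit and 71.5 to 75.4 in untreated libraries, and differ in their parts, with more HCN and less TRPA and TRPV in conduit libraries.

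Partner genes of these channels were followed in a list of 53, of which 44 were tested, 12 rose and 17 fell, with a median log2 fold change of -0.18. Over all tested genes 24.0% rose and 26.2% fell, with a median of -0.04. Of the HCN and ASIC partners, Pex5l, whose product TRIP8b is the auxiliary subunit that sets surface expression and gating of HCN channels, had 126, 108 and 115 CPM in conduit libraries, against 4.41, 5.31 and 6.92 CPM in untreated libraries. That was the highest fold change of the 44 partners (4.39 ± 0.20, adjusted p = 6.49e-05, a fitted fold of 21.0), in the same direction as Hcn2. Kcne2, a small accessory subunit of potassium and HCN channels, also rose (1.72 ± 0.42, adjusted p = 0.0125, and 0.0548 without conduit replicate 2). Scnn1g, an epithelial sodium channel subunit, fell (-2.26 ± 0.73, adjusted p = 0.0347). It lost its call without conduit replicate 2 or 3 or untreated replicate 1 or 3 (0.101, 0.105, 0.106 and 0.0621), and stood at -3.20 without conduit replicate 1. Scnn1g had 23, 4 and 8 counts in conduit and 116, 35 and 61 in untreated libraries. Conduit replicates 2 and 3 were thus under the minimum count of 10 set for the filter.

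Genes that release, sense or break down ATP went both ways. Panx1, a channel through which cells release ATP, was at 3.30, 3.39 and 3.19 CPM in conduit libraries, against 17.7, 12.1 and 12.2 CPM in untreated libraries (-2.09 ± 0.22, adjusted p = 0.000295). Slc17a9, the transporter that loads ATP into vesicles, fell with it (-2.32 ± 0.41, adjusted p = 0.00288). The ectonucleotidases split. Entpd2, which turns ATP mainly into ADP, rose to 442 ± 59.4 CPM in conduit nerves, against 122 ± 58.0 CPM in untreated nerves (1.86 ± 0.32, adjusted p = 0.00269). Entpd1, or CD39, which carries ATP through to AMP, fell to 81.2 ± 9.99 CPM in conduit nerves, against 189 ± 13.1 CPM in untreated nerves (-1.22 ± 0.14, adjusted p = 0.000463), as did Nt5e, or CD73, which makes adenosine (-1.57 ± 0.33, adjusted p = 0.00653).

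Among 7 P2Y receptors, the G protein-coupled nucleotide receptors, 2 rose and 3 fell, where 50.2% of all tested genes were called in either direction. P2ry2, activated by ATP and UTP, was at 176, 184 and 154 CPM in conduit libraries, against 51.3, 47.0 and 53.7 CPM in untreated libraries (1.76 ± 0.13, adjusted p = 0.000111). P2ry1, the ADP receptor, rose as well (1.33 ± 0.29, adjusted p = 0.00707), but did not pass by limma on unfiltered FPKM (0.0655). P2ry6, a UDP receptor of phagocytes, fell to 4.10 ± 0.147 CPM in conduit nerves, against 28.1 ± 5.44 CPM in untreated nerves (-2.77 ± 0.18, adjusted p = 8.57e-05), and P2ry13 (-2.34 ± 0.52, adjusted p = 0.00775, and -2.98 without conduit replicate 3) and P2ry12 (-1.01 ± 0.21, adjusted p = 0.00626) also fell. Macrophage markers were lower in the same libraries, and their part in these values was not tested.

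Of 14 mechanosensing genes beside the Piezo channels 9 were tested, 4 rose and 4 fell, against 24.0% higher and 26.2% lower over all tested genes. Kcnk2, the stretch- and heat-activated potassium channel TREK-1, was at 12.99, 19.8 and 12.9 CPM in conduit libraries, against 2.12, 2.18 and 2.76 CPM in untreated libraries (2.69 ± 0.25, adjusted p = 0.000189). Tmem150c, reported in mouse to modify mechanically activated currents, rose to 15.1 ± 0.458 CPM in conduit nerves, against 3.97 ± 0.575 CPM in untreated nerves (1.92 ± 0.18, adjusted p = 0.000189). The TMEM63 channels, which open on membrane tension, split into Tmem63c (1.71 ± 0.24, adjusted p = 0.00108) and Tmem63b (0.61 ± 0.12, adjusted p = 0.00467) that rose and Tmem63a (-1.23 ± 0.13, adjusted p = 0.000291) that fell. Tmem63b did not pass with library totals (0.22, adjusted p = 0.126) or in the limma fits on FPKM (0.0813 to 0.114). Stom, stomatin (-0.90 ± 0.16, adjusted p = 0.00341), Tmem120a (-1.03 ± 0.25, adjusted p = 0.0126) and Mdfic, a Piezo-binding subunit (-0.53 ± 0.19, adjusted p = 0.0478), were lower. Mdfic lost its call with RLE scaling (0.0547), the replicate block (0.0912) and without the low-count filter (0.0567). It also lost the call without any library except untreated replicate 1 (0.0673 to 0.18), at -0.36 without conduit replicate 2. Stoml3 had no count in any library.

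Of 8 genes that tune TRPV1 and TRPA1, 6 were tested, 1 rose and 2 fell, so that 3 of 6 were called, near the share of 50.2% over all tested genes. F2rl1, the protease-activated receptor PAR2, was lower (-1.75 ± 0.34, adjusted p = 0.0043). Akap5, the scaffold that brings kinases to TRPV1, had 16, 22 and 28 counts in conduit libraries and 0, 4 and 5 counts in untreated libraries. It passed the filter on low counts through the conduit group only, so its call (3.15 ± 0.79, adjusted p = 0.0132, and 3.76 without untreated replicate 3) rests on few counts and on a gene that had to differ to be tested. In store-operated calcium entry, the pore genes split, with Orai2 higher (1.24 ± 0.16, adjusted p = 0.00073) and Orai1 (-1.09 ± 0.25, adjusted p = 0.00888) and Orai3 (-0.78 ± 0.13, adjusted p = 0.00234) lower. The calcium sensor Stim1 rose (0.67 ± 0.17, adjusted p = 0.013) but did not pass with library totals (0.29, adjusted p = 0.204). Nor did it pass in the limma fits on FPKM (0.228 to 0.303) or with untreated replicate 1 and conduit replicate 3 both left out (0.066). Of 5 channels related to TRP channels, Mcoln3, a lysosomal mucolipin, was called (-2.22 ± 0.71, adjusted p = 0.034). It lost the call without conduit replicate 1, 2 or 3 or untreated replicate 2 (0.0795, 0.105, 0.0928 and 0.105). The call was also lost with the replicate block (0.0745) and by limma on unfiltered FPKM (0.144). Mcoln3 stood at -1.19 without untreated replicate 2.

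**Figure D5:**
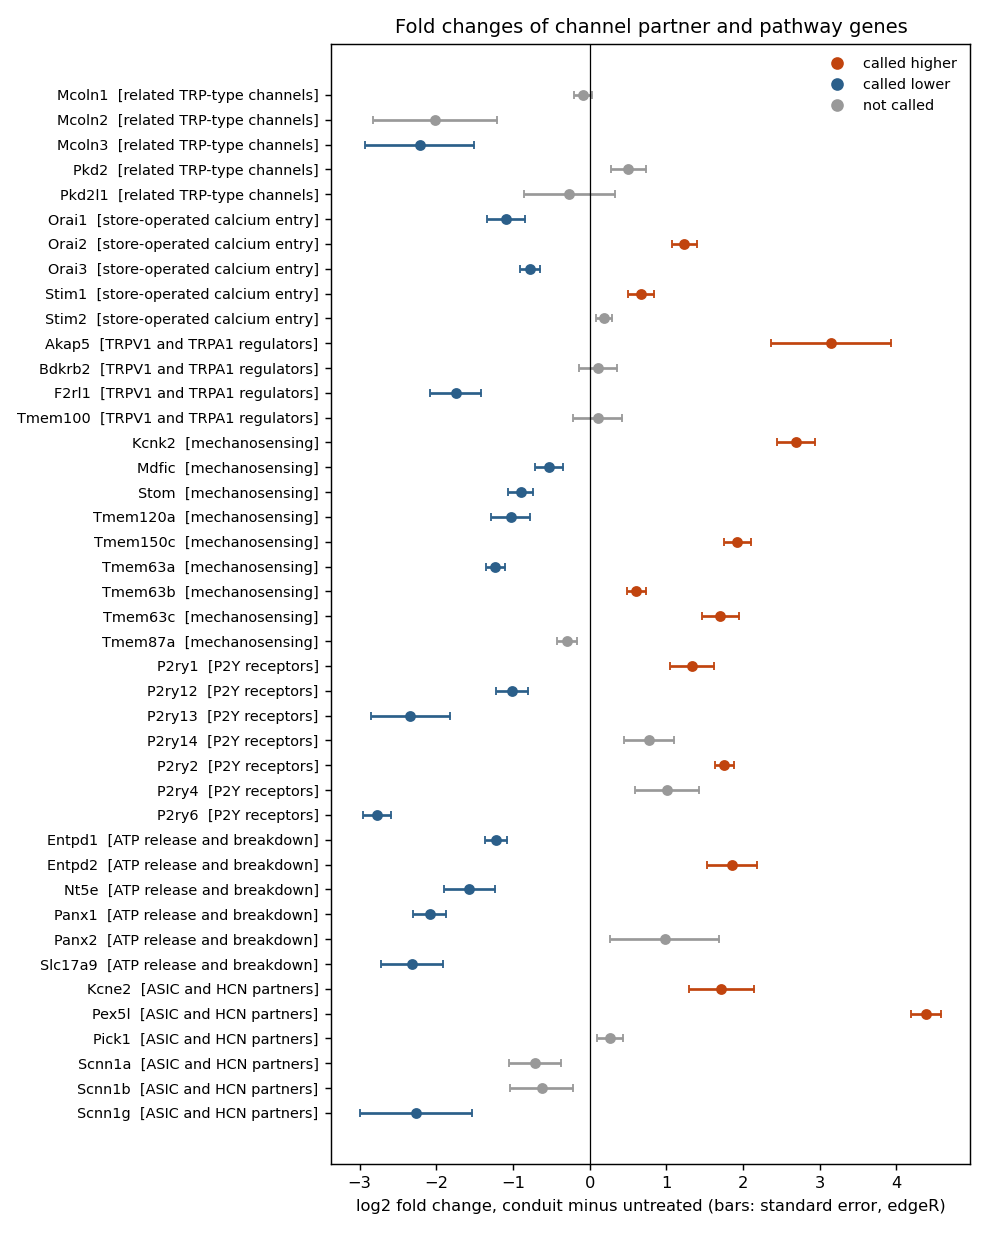
Log2 fold change, conduit minus untreated, with its standard error for 42 of the 44 tested partner genes, grouped by their relation to the channels. Pex5l at 4.39 lies farthest to the right and P2ry6 at -2.77 farthest to the left.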

How the data were processed

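Messenger RNA of 6 rat sciatic nerve libraries was measured. Per the labels' protocols, TRIzol was used for RNA, and mRNA-enriched libraries came from the VAHTS Universal V10 kit. The authors deposited raw counts per gene and FPKM values. Tools named per the submitters' processing notes are fastp, HISAT2, HTSeq and DESeq2, with build mRatBN7.2; versions and use of strand are not given in the sources used here, so overlapping or antisense genes may not be separated. Deposited FPKM matched count over gene length and library total in all 20504 genes checked (tolerance 0.0001), so they are scaled by library totals. Of 29884 genes 7834 had no count, 0 rows lacked a gene name and 0 columns were left unused.

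Counts were tested with edgeR 4.0.16 (quasi-likelihood F test, TMM, filterByExpr with minimum count 10) in R 4.3.3, with SE taken as the fold change over the square root of F. Other settings tried were RLE scaling, DESeq2 1.42.0, no filter, scaling by library totals, a replicate block, limma 3.58.1 on log2(FPKM + 1) or log2(FPKM + 0.1) for genes with at least 0.5 FPKM in 3 libraries or without that filter, and each library left out. Scripts were tested on simulated data. The members and lists were chosen with earlier results of these data known. The naming rule took all tested channel genes, the 2 most abundant genes of each marker list and, of each partner group, up to 3 called genes in each direction with the smallest adjusted p; a few genes of these lists are not reported here and are not drawn in the plots of single genes. The ratios of 2 genes, the promoter windows, Cd68, and the uncalled partner and marker genes named were chosen after their values were seen. Ratios were compared by exact permutation tests over the libraries. Promoter windows are RefSeq's (GRCr8), matched by symbol for 30 of the 40 genes.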

Additional observations from a re-analysis of the deposited data

How the results depend on the processing

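Of the 22 channel genes called, 15 kept their direction and call in every alternative in which they were tested, of 15 run. The other 7, namely Asic1, Asic2, P2rx1, P2rx3, Trpa1, Trpm4 and Trpv4, lost the call in at least 1, and 0 of the called genes changed sign. Of the uncalled genes, Trpm7 changed sign with library totals (-0.27), in the FPKM fits and without untreated replicate 1 (-0.05), Trpc6 without conduit replicate 1 (0.02) or untreated replicate 2 (0.04), and P2rx5 without untreated replicate 1 (0.16), all far from the threshold. Trpa1 lost it when untreated replicate 1 and conduit replicate 3 were both left out (2.46, adjusted p = 0.0522), an alternative chosen after seeing the data. That setting called 11 channel genes higher and 6 lower, and 2985 higher and 3116 lower over all genes. With each library left out in turn, 11 to 13 channel genes were higher and 6 to 7 lower, 11 to 13 partner genes higher and 14 to 16 lower, and 5840 to 7882 of all genes were called. With library totals 12 channel genes were higher and 10 lower. With the replicate number as a block 12 were higher and 8 lower, 12 and 15 of the partners, and 7515 of all genes were called. Same-numbered libraries deviated from their group means with correlations of 0.18, -0.0466 and 0.106, and not every library correlated best with its own number. Deviations from the mean of only 3 libraries offset each other, so these values cannot decide whether the libraries pair. DESeq2 called 14 higher and 9 lower of the 38 channel genes with counts, with Hcn4 added (adjusted p = 0.0364). Of all 22050 genes with counts it called 4094 higher and 4294 lower. Over all genes, library totals gave 2293 higher and 6553 lower, in place of 3711 and 4050. Filtered FPKM tested 20 channel genes, 9 higher and 7 lower. Of all 13161 genes tested on filtered log2(FPKM + 1), 2044 were higher and 6020 lower. Of 29 partners called, 22 kept the call throughout and 0 reversed. Depth limits Trpa1, Asic4 and the 11 genes not tested, and a gene not called is not shown to be equal.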

Other observations

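Windows of 250 bases before the start were found for 30 of the 40 channel genes. Trpv3 was the gene with an AP-1 site among them, and no window held the EGR site, which 0.478% of all windows hold. GC content was highest before Asic2 (78.8% in the richer of its windows, with 4 GC boxes), and Hcn2 stood at 71.6%, Asic1 and Trpv4 at 72.8%.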
